A study of Homo sapiens with 12 samples.

Results

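The comparison of 5-fluorouracil (5-FU) with untreated cells rests on 4 of the 12 two-colour arrays, chosen by their titles. H460 is a human lung cancer cell line, and each array set RNA from drug-treated H460 cells against RNA from untreated H460 cells. For 5-FU the dose was 1 µM for 24 h. Of the 4 arrays, 2 carried treated RNA in channel 2 (here the forward arrays) and their 2 dye-reversed partners carried it in channel 1 (the reversed arrays). Each forward array was averaged with its reversed partner, which gave 2 replicates. The other 8 arrays, 2 per drug, carried treated RNA in channel 1. Their drugs, also for 24 h, were 0.2 µM cytarabine, 5 µM of the platinum compound cisplatin, 5 nM of the taxane paclitaxel and 0.2 µM cytochalasin D. Untreated H460 cells were the partner in every case, and the labels say neither whether replicates came from separate cultures nor whether untreated RNA was shared, so the p-values measure only the spread between these arrays, which may be technical. All values are from a single tumour line, and a ratio gives no level, so lineage markers could not be used to check the label.

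5-FU is a uracil analogue. Inside the cell it is converted to a nucleotide that blocks thymidylate synthase, the enzyme that makes thymidylate for DNA, and to a ribonucleotide that is built into RNA, where it disturbs ribosomal RNA maturation. Both routes are known to stabilise the transcription factor p53, which H460 cells carry in its wild-type form, and p53 in turn induces the cell-cycle inhibitor CDKN1A and its own antagonist MDM2. Cytarabine is also a pyrimidine analogue, cisplatin crosslinks DNA, paclitaxel stabilises microtubules and cytochalasin D caps actin filaments.

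Values are log2 ratios of treated over untreated, centred on the median of each array, so a rise or fall is relative to the median probe. The deposited values do not state their log base or which channel is the numerator. The base was taken as 2, and the numerator as the channel for which MDM2, CDKN1A and the p53 target list are higher after 5-FU, so the direction is likely and not stated, and the rise of those genes in 5-FU is no independent evidence. In the cisplatin arrays, which that choice did not use, 18 of 18 measured p53 targets lay above 0 with a median of 1.09. The cisplatin median over the features tested against every drug was -0.001. The list was chosen with earlier results of these data known, and the cisplatin arrays were not dye-reversed. This count is therefore no independent check of the direction.

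The 5-FU arrays stood apart from the others before any test. They held 4357 to 6411 values of 8170 probes (21.5% to 46.7% missing), against 6989 to 7644 on the other arrays. Across genes and unnamed probes, arrays of different other drugs correlated at r = 0.361 to 0.732. The reversed 5-FU arrays correlated with them at 0.105 to 0.156 and the forward 5-FU arrays at 0.039 to 0.19. The 2 forward arrays and the 2 reversed arrays correlated within their orientation at 0.623 to 0.679, and forward with reversed arrays, once turned, at 0.486 to 0.527. These correlations are over genes and unnamed probes that share arrays and centring and are descriptions only. Because all 5-FU arrays differ from all others in the number of values, the drug and the set of arrays cannot be told apart in any comparison between drugs.

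After 5-FU more genes fell than rose, and the falls went further. A feature, meaning a gene or an unnamed probe, was tested where all 4 5-FU arrays had a value. Of 3714 features tested, 204 rose (5.49%) and 458 fell (12.3%) at an adjusted p under 0.05 (limma, moderated test of 2 replicates with the spread shared over all 5 drugs, Benjamini-Hochberg). The median log2 ratio of all tested features was 0.01 and their median standard error (SE) 0.07. This and every SE below is the moderated SE of limma, from a spread shared over all 5 drugs. It can be much smaller than the spread of the 2 5-FU replicates. PIGR gave replicate values of 1.30 and 0.52 with an SE of 0.15. Forward and reversed arrays were averaged before this fit. A difference between orientations that both replicates share therefore enters neither the SE nor the p-value against untreated cells. HIF1A had a forward mean of -0.35 and a reversed mean of -1.33 with an SE of 0.05. Rises of at least 1, a doubling, numbered 10, and falls of at least 1 numbered 66. Among the called features were 146 named genes that rose and 317 that fell. A further 1959 genes had a value on at least 1 5-FU array but were not tested, and 941 had none. Scored on the 2 5-FU replicates alone, with no other drug in the fit, 107 features rose and 329 fell, and 403 of the 662 calls were kept. Of the genes described below, that fit did not call PIGR, GET3, TP53I3, TK1, ABCC4, CAD, BYSL, HSPA4, HNRNPA2B1, PDIA3, ASPH, SCARF1, LAMA2, GPC1, RAB18, UGT1A10, COX7A2L or S100A4 (adjusted p from 0.0579 to 0.142). RNA was taken from whole cultures, so fewer cells of a kind and less RNA per cell cannot be told apart.

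The called features were picked on the mean of both dye orientations, so their agreement in sign is partly fixed by the selection. Of the 662 called features, 639 had the same sign in the forward and the reversed mean, 23 had opposite signs, and 572 had the same sign on all 4 arrays. Their mean absolute log2 ratio was 0.57 on forward and 0.60 on reversed arrays. Over these features, which had to agree in part to be called, the forward and reversed means correlated at r = 0.816. Forward arrays alone kept 528 of the 662 calls and reversed arrays alone 509.

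**Figure D1:**
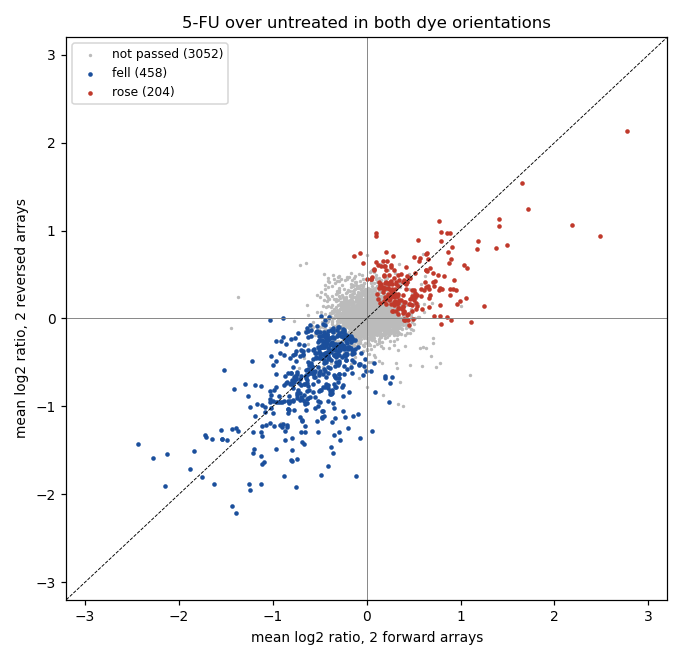
Mean log2 ratio of the 2 forward arrays (x axis) against that of the 2 reversed arrays (y axis) for each of 3714 features; red points rose, blue points fell, grey points did not pass and the dashed line marks equality. The 458 falls spread along the diagonal to the lower left and outnumber the 204 rises.

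HMOX1 encodes haem oxygenase 1, an enzyme that breaks down haem and is induced by oxidative stress. It had the largest rise among named genes with the same sign on all 4 arrays. Its log2 ratios were 2.93 and 2.62 on the forward arrays and 2.13 and 2.13 on the reversed arrays. The 4 arrays lie far above 0, and the forward values are the higher pair. The mean of the 2 replicates was 2.45 ± 0.08 (moderated SE), 5.47-fold higher, with a limma adjusted p of 6.74e-07. On the 8 arrays of the other drugs HMOX1 ranged from -0.02 to 0.48, so the groups do not overlap.

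GM2A, the activator protein for ganglioside breakdown in lysosomes, gave 2.95 and 1.42 on the forward and 1.23 and 0.90 on the reversed arrays (mean 1.62 ± 0.18, adjusted p = 0.000245). Replicate 1 forward is well above the other 3 arrays. IER3, an early-response gene that modulates cell survival, was the most even of the large rises, with 1.67, 1.64, 1.48 and 1.61 (forward, forward, reversed, reversed; mean 1.60 ± 0.06, adjusted p = 1.68e-06). GPRC5A, a retinoic acid-induced receptor of lung epithelium, gave 1.41, 1.40, 1.07 and 1.04 in the same order (mean 1.23 ± 0.05, adjusted p = 1.84e-06). TOB1, an antiproliferative protein that recruits the mRNA deadenylation complex and a p53 target here, gave 1.76, 0.99, 1.02 and 0.59 (mean 1.09 ± 0.12, adjusted p = 0.000295). No array of these genes lies below 0.59.

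The 10 largest rises were taken among named genes with the same sign on all 4 arrays. Of these, MDM2 is described with the p53 targets and the other 4 were below 1. The 10 rises of at least 1 counted above therefore include features outside that set. PIGR, the receptor that carries immunoglobulin across epithelia, rose by a mean of 0.91 ± 0.15 but its replicate 2 arrays (0.53 and 0.52) lay well under those of replicate 1 (1.18 and 1.43). MRPL49, a protein of the mitochondrial ribosome, rose by 0.89 ± 0.10. KIF1C, a kinesin motor, rose by 0.93 ± 0.17 and did not pass without replicate 1 (0.86, adjusted p = 0.0654). GET3, which delivers tail-anchored proteins to the endoplasmic reticulum, rose by 0.86 ± 0.12.

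Falls were ranked among named genes with the same sign on all 4 arrays. The largest was that of SARM1, an enzyme that cleaves NAD in dying axons. It gave -2.06 and -2.25 on the forward and -1.94 and -1.87 on the reversed arrays (mean -2.03 ± 0.06, 4.08-fold lower, adjusted p = 3.63e-07). The 4 arrays lie close together, far from the 8 arrays of the other drugs, which ran from -0.20 to 0.17. EFEMP1, an extracellular matrix glycoprotein, gave -1.25, -1.53, -2.38 and -2.05 (forward, forward, reversed, reversed; mean -1.80 ± 0.05, adjusted p = 3.54e-07). YWHAZ, a 14-3-3 adaptor protein that binds phosphorylated partners, gave -1.59, -2.18, -1.34 and -2.09 (mean -1.80 ± 0.15, adjusted p = 4.53e-05). EFEMP1 was lower on the reversed pair, and YWHAZ lower in replicate 2. ENTPD3, an ectonucleotidase, fell by 1.59 on the log2 scale (SE 0.10), but too few values of the other drugs were present for the full comparison between drugs.

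**Figure D2:**
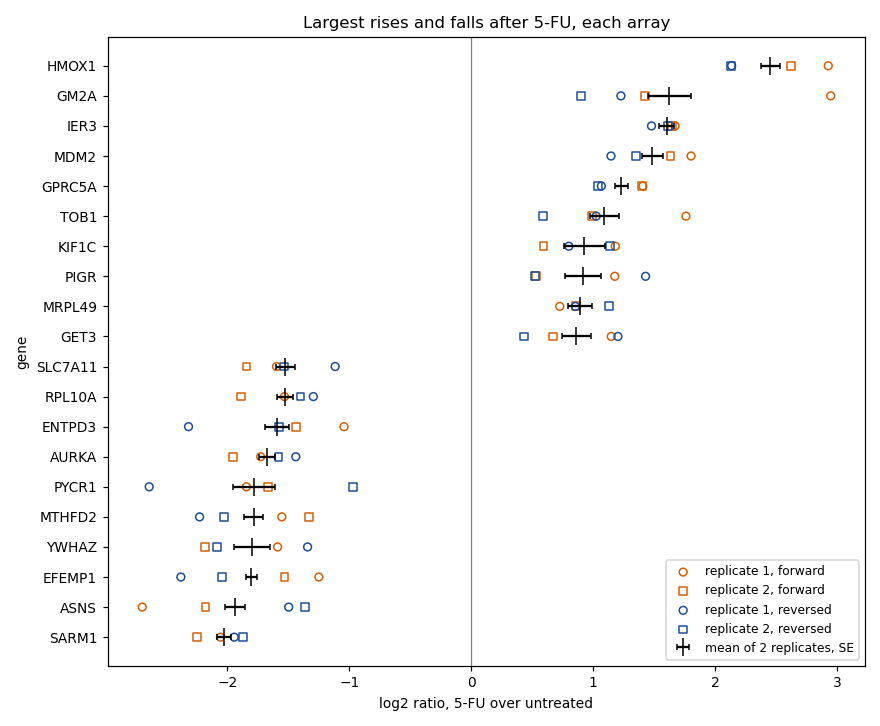
Log2 ratios of the 10 largest rises and 10 largest falls among named genes with the same sign on all 4 arrays; circles are replicate 1, squares replicate 2, orange forward, blue reversed, and the black bar is the mean of 2 replicates with its SE. HMOX1 at 2.45 and SARM1 at -2.03 mark the ends; PYCR1 has the widest spread of the falls, from -2.64 to -0.97.

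Of 8 tested genes in the list of direct targets and handlers of fluoropyrimidines, 1 rose and 1 fell (12.5% each, against 5.49% and 12.3% of all features), with a median of 0.01. TK1, the salvage kinase that makes thymidine monophosphate, fell by 0.39 on the log2 scale (SE 0.10, limma adjusted p = 0.0268), but it was not called without replicate 1 (-0.25, adjusted p = 0.322). ABCC4, an efflux pump of nucleotide analogues, was called higher at 0.22 ± 0.05, with 0.07 and -0.06 forward against 0.39 and 0.50 reversed, and lost its call without replicate 1 (0.22, adjusted p = 0.105) or replicate 2 (0.23, adjusted p = 0.107). TYMS, thymidylate synthase itself, had only 2 values, 0.35 on a forward and -0.26 on a reversed array, of opposite sign. UMPS, which makes the uridine monophosphate skeleton and activates 5-FU, also had 2 values, -0.09 and 0.02. UPP1, uridine phosphorylase, had all 4 and did not pass (0.04, adjusted p = 0.816). TYMP, thymidine phosphorylase, had no value on any 5-FU array.

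In nucleotide synthesis, IMPDH2, the main inosine monophosphate dehydrogenase and rate-limiting in guanine nucleotide synthesis, gave -0.99 and -1.61 forward and -0.63 and -0.86 reversed (mean -1.02 ± 0.09, adjusted p = 6.09e-05). All 4 arrays were below 0, the forward pair lower. Its isoenzyme IMPDH1 was called in the other direction at 0.38 ± 0.09 but not without replicate 1 (0.44, adjusted p = 0.0735) or replicate 2 (0.32, adjusted p = 0.206). CAD, which carries the first steps of pyrimidine synthesis, fell by 0.40 on the log2 scale (SE 0.07) and was not called without replicate 2 (-0.28, adjusted p = 0.0938). In all, 1 of 7 tested purine and pyrimidine synthesis genes rose (14.3%, against 5.49% of all features) and 2 fell (28.6%, against 12.3%).

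Of 9 tested p53 targets, 5 rose (55.6%, against 5.49% of all features) and 1 fell (11.1%, against 12.3%), with a median of 0.56; the sign of the ratio was chosen partly on these genes, so the direction is not evidence. MDM2, the ubiquitin ligase that destroys p53, gave 1.80 and 1.63 forward and 1.15 and 1.35 reversed (mean 1.48 ± 0.09, 2.79-fold, adjusted p = 9.03e-06). DDB2, a damage sensor of nucleotide excision repair, gave 1.09 and 0.99 forward and 0.43 and 0.77 reversed (mean 0.82 ± 0.07, adjusted p = 5.25e-05). EI24, which was named after its values were seen, gave a mean of 0.56 ± 0.09. TP53I3, a quinone oxidoreductase, gave 0.63 ± 0.12 and was not called without replicate 1 (0.37, adjusted p = 0.111). CDKN1A could not be tested, because neither forward array had a value; its reversed values were 2.41 and 2.57. CCNG1, a cyclin that p53 also induces, was the member called lower, at -0.24 ± 0.06, with -0.09 and 0.05 forward against -0.36 and -0.57 reversed. GDF15 had no value.

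For several p53 targets cisplatin, not 5-FU, gave the highest values. Differences between drugs, here and below, use only the 2 reversed 5-FU arrays unless stated. MDM2 was at 2.75 and 2.57 on the cisplatin arrays, above every 5-FU array, and the reversed 5-FU arrays were lower than cisplatin by 1.41 on the log2 scale (SE 0.14, limma adjusted p = 0.000463). DDB2 was likewise 1.67 in cisplatin, and the difference of 5-FU minus cisplatin was -1.07 ± 0.13 (adjusted p = 0.00125). For CDKN1A the difference was -1.17 ± 0.28 (adjusted p = 0.0236), against 2.29 ± 0.28 over cytarabine (adjusted p = 0.000833). CCNG1 was 0.63 in cisplatin, and the difference was -1.10 ± 0.10 (adjusted p = 0.00042). PPM1D, a phosphatase that switches p53 signalling off, gave 0.24 in 5-FU (adjusted p = 0.217) and 1.67 in cisplatin. TOB1 was the only p53 target of the 9 called higher than each of the 4 other drugs, against 1.07% of all features so compared. This call was ended by 5 of the 8 omissions of another drug's array. TP53I3 was higher in value than each (differences of 0.53, 0.17, 0.45 and 0.51 from cytarabine, cisplatin, paclitaxel and cytochalasin D) without passing against all (largest adjusted p = 0.548).

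**Figure D3:**
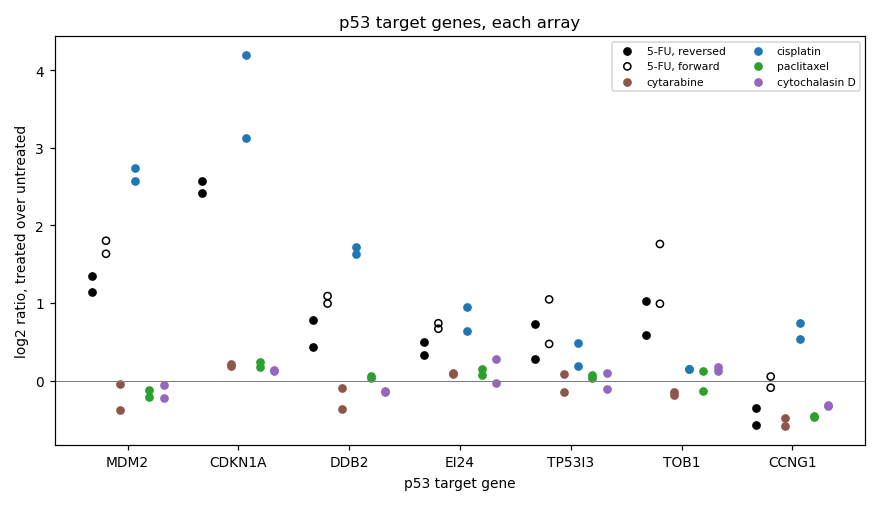
Log2 ratio on each array (y axis) for 7 p53 target genes (x axis), with filled black points for reversed and open points for forward 5-FU arrays and colours for the other drugs. Cisplatin lies highest for MDM2, CDKN1A and DDB2, with 5-FU next, whereas 5-FU is highest for TOB1; CDKN1A has no forward value.

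Of 11 tested members of the G2 and mitosis list 5 fell (45.5%, against 12.3% of all features) and none rose (against 5.49%). AURKA, the kinase that matures centrosomes, gave -1.73 and -1.95 forward and -1.44 and -1.58 reversed (mean -1.67 ± 0.06, adjusted p = 1.29e-06). BIRC5, or survivin, a subunit of the chromosomal passenger complex, gave -1.41, -0.97, -1.11 and -1.12 in the same order (mean -1.15 ± 0.06, adjusted p = 7.1e-06). AURKB, the kinase of that complex, fell by 0.91 on the log2 scale (SE 0.10). For these 3 genes no array of 5-FU lies above -0.87. AURKB also had means of -0.54 to -0.40 under the other drugs and was not called lower than each (largest limma adjusted p = 0.138). AURKA (-0.65 to -0.24 under the other drugs) and BIRC5 (-0.22 to 0.17) were lower after 5-FU than after each. HMMR, a spindle-associated protein, was called lower at -0.57, but its 2 probes were -1.34 and 0.21, so its value is uncertain. PTTG1, the securin that holds sister chromatids together, did not pass (-0.12, adjusted p = 0.218). The median over the 11 genes was -0.16.

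Among 14 tested genes of S phase entry and DNA replication, 1 rose and 1 fell (7.14% each, against 5.49% and 12.3% of all features), with a median of -0.01. CCND1, cyclin D1, was called higher at 0.59 ± 0.10 but not without replicate 2 (0.45, adjusted p = 0.0794). MCM7, a subunit of the replicative helicase, was called lower at -0.34 ± 0.07, but its 2 probes were -0.66 and -0.02. It was not called without replicate 1 (-0.37) or replicate 2 (-0.32).

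Of 10 tested DNA repair genes, 4 fell (40%, against 12.3% of all features) and none rose (against 5.49%), with a median of -0.11. PARP1, which marks strand breaks with ADP-ribose, gave -0.88 and -0.91 forward and -1.01 and -0.88 reversed (mean -0.92 ± 0.06, adjusted p = 1.86e-05). MSH6, a mismatch recognition protein, gave -0.86, -0.91, -1.10 and -0.79 (mean -0.91 ± 0.06), and APEX1, the endonuclease of base excision repair, gave a mean of -0.88 ± 0.06 with all 4 arrays at -0.82 or lower. These 3 genes fell to nearly the same extent on all 4 arrays, and each was also lower than under every other drug, where their means ran from -0.13 to 0.38. PMS2, a mismatch repair protein, fell by 0.71 on the log2 scale (SE 0.07) and was at -0.90 under cytarabine. CHEK1 did not pass (-0.08, adjusted p = 0.816).

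All 13 measured genes of cytosolic ribosomal proteins were tested; 10 fell (76.9%, against 12.3% of all features) and none rose (against 5.49%), and the median was -0.45. The 10 falls had the same sign on all 4 arrays. RPL10A, a protein of the large subunit, gave -1.53 and -1.89 forward and -1.29 and -1.40 reversed (mean -1.53 ± 0.06, adjusted p = 1.84e-06). RPL3, which lies at the peptidyl transferase centre, gave -1.47, -1.61, -1.08 and -1.66 (mean -1.45 ± 0.09, adjusted p = 1.15e-05). RPL12, of the stalk base, gave -1.45, -1.52, -1.51 and -1.26 (mean -1.44 ± 0.08, adjusted p = 7.97e-06). RPL17, at the exit tunnel, gave a mean of -1.11 ± 0.07. In none of these 4 genes does a 5-FU array rise above -0.85. RPS4X (-0.29, adjusted p = 0.0549) and RPS15 (-0.10, adjusted p = 0.26) did not pass. All 13 could be compared with every other drug, and 5 of them, RPL10A, RPL3, RPL12, RPL17 and RPL14, were lower after 5-FU than after each other drug. Of all features so compared, 4.98% fell and were lower than under each other drug. The list medians were -0.36 for cytarabine, -0.01 for cisplatin, -0.05 for paclitaxel and -0.03 for cytochalasin D.

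Messages for ribosomal proteins typically begin with a run of pyrimidines, the terminal oligopyrimidine tract through which growth signalling controls their translation. The sequence around the annotated start is therefore shown for some members that fell and for RPL37A, which did not. Each line runs from 15 bases before the annotated start to 15 bases from it, 5′ to 3′ on the gene's strand, from RefSeq on GRCh38.p14, and capitals mark an unbroken run of at least 5 C or T from the start.
RPL12 (chr9:127451392-127451421, minus strand): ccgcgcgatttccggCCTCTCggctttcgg
RPL14 (chr3:40457324-40457353, plus strand): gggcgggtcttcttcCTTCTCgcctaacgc
RPS23 (chr5:82278340-82278369, minus strand): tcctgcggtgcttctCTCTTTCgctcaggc
RPL28 (chr19:55385917-55385946, plus strand): tcgcccctcgccttcCTCTTTCCgtctcag
RPS3A (chr4:151099613-151099642, plus strand): cgactcccacttccgCCCTTTTggctctct
RPL37A (chr2:216498829-216498858, plus strand): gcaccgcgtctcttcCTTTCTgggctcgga
RPL10A (chr6:35468386-35468415, plus strand): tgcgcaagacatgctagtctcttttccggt
RPL3 (chr22:39319609-39319638, minus strand): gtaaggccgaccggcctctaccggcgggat

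RefSeq start sequences were matched for 12 of the 13 tested ribosomal protein genes, and 6 of the 12 (50%) held such a run, against 5.22% of all 27305 promoters. Of the 9 that fell and had a sequence, 5 held it (55.6%). The run is present in RPL12, RPL14, RPS23, RPL28 and RPS3A, whose means were -1.44, -0.80, -0.68, -0.33 and -0.31. It is equally present in RPL37A, which gave 0.10, 0.23, -0.15 and 0.12 and did not pass, and it is not at the annotated start in RPL10A and RPL3, which fell the furthest with RPL12. Among these 8 genes the 3 lowest log2 ratios include 1 gene with the run at the annotated start and 2 without it there. RPL17 (-1.11) and RPL11 (-0.45) also fell without the run at the annotated start, and their sequences are not shown. In the windows of RPL10A and RPL3 a run of C and T lies close to the annotated start. The rule counts only a run that begins exactly there, so it does not show that these 2 messages lack the tract.

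Of 20 tested translation factors, 9 fell (45%, against 12.3% of all features) and 1 rose (5%, against 5.49%), with a median of -0.26. EIF3E, a subunit of the initiation factor that loads the small subunit, gave -0.80 and -0.96 forward and -1.99 and -1.60 reversed (mean -1.34 ± 0.06, adjusted p = 2.73e-06). EEF1B2, a nucleotide exchange factor for elongation, gave -0.84, -0.85, -1.03 and -1.03 (mean -0.94 ± 0.08, adjusted p = 6.61e-05). EIF4H, which aids the unwinding of messenger leaders, fell by 0.62 on the log2 scale (SE 0.07). EEF1D, a partner of EEF1B2 in the same exchange complex, was the member called higher, at 0.82 ± 0.18, but not without replicate 1 (0.70, adjusted p = 0.157) or replicate 2 (0.95, adjusted p = 0.0656). EIF5 changed sign with orientation, 0.81 and 1.39 forward against -0.66 and -0.62 reversed, and did not pass. Both EIF3E and EEF1B2 were lower than under each other drug.

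Of 11 tested ribosome assembly genes, 4 fell (36.4%, against 12.3% of all features) and 1 rose (9.09%, against 5.49%), with a median of -0.02. NCL, nucleolin, gave -0.90 and -0.42 forward and -1.32 and -1.26 reversed (mean -0.97 ± 0.08, adjusted p = 4.08e-05). NOLC1, a nucleolar scaffold, was called lower at -0.66 ± 0.14 and NOP56, a core protein of methylation guide particles, at -0.29 ± 0.07, and both lost the call without replicate 1 (-0.71, adjusted p = 0.0724, and -0.27, adjusted p = 0.137) or replicate 2 (-0.61, adjusted p = 0.125, and -0.30, adjusted p = 0.104). MYC, which drives ribosome synthesis, did not pass (-0.23, adjusted p = 0.0761). The single rise, BYSL, rested on a forward array at 1.41, with 0.15, -0.19 and 0.26 on the others, and was not called without replicate 1 (0.20, adjusted p = 0.39).

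Of the 10 largest falls among named genes with the same sign on all 4 arrays, 4 were amino acid synthesis and one-carbon genes. These genes are the usual targets of ATF4, a transcription factor that is made when amino acids run short. Of 15 tested, 8 fell (53.3%, against 12.3% of all features) and 1 rose (6.67%, against 5.49%), with a median of -0.57. ASNS, asparagine synthetase, gave -2.70 and -2.18 forward and -1.50 and -1.36 reversed (mean -1.93 ± 0.08, adjusted p = 1.84e-06). MTHFD2, the mitochondrial enzyme of the folate cycle, gave -1.55, -1.33, -2.23 and -2.03 (mean -1.78 ± 0.08, adjusted p = 2.14e-06). PYCR1, the last enzyme of proline synthesis, gave -1.84, -1.66, -2.64 and -0.97 (mean -1.78 ± 0.17, adjusted p = 0.000116). SLC7A11, which imports cystine, gave -1.60, -1.84, -1.12 and -1.54 (mean -1.52 ± 0.08, adjusted p = 5.65e-06). Every one of these 16 values is at or below -0.97, while ASNS is lower on forward arrays and MTHFD2 on reversed arrays.

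Other members did not pass. TRIB3, which ATF4 also induces, gave -0.16 (adjusted p = 0.114), and GOT1, an aspartate aminotransferase, gave -0.18 (adjusted p = 0.271). Partial falls under other drugs were seen too: ASNS stood at -0.86 in cisplatin and -0.49 in cytarabine, and SLC7A11 at -1.16 in cisplatin. From this the reversed 5-FU arrays of SLC7A11 (mean -1.33) differed by -0.16 ± 0.14 (limma adjusted p = 0.454). Its forward 5-FU mean, which did not enter that difference, was -1.72. On the reversed 5-FU arrays (mean -1.43) ASNS was nevertheless lower than after each other drug, the smallest difference being -0.57 from cisplatin (largest limma adjusted p = 0.00449). For MTHFD2 the smallest difference was -1.63 (largest adjusted p = 0.000146). In all, 4 of the 15 fell and were lower than under each other drug, as were 4.98% of all features so compared. Of 6 tested aminoacyl-tRNA synthetases, 3 fell (50%, against 12.3% of all features) and none rose (against 5.49%): IARS1, NARS1 and YARS1, with means of -0.89, -0.72 and -0.50. None of these 3 falls was called lower than each other drug, and NARS1 stood at -0.61 in cytarabine and -0.59 in cisplatin. The list median was -0.40 after 5-FU. It was -0.19 for cytarabine, -0.27 for cisplatin, -0.21 for paclitaxel and -0.36 for cytochalasin D.

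The ATF4 site is a composite of the letters TGATGNAAN, and the ASNS promoter is shown because it holds a well-known copy, with that of GOT1, which holds the letters but did not change. Both windows are from RefSeq on GRCh38.p14, 5′ to 3′ on the strand of the gene, and capitals mark the match, which in GOT1 lies on the opposite strand.
ASNS (chr7:97872409-97872538, minus strand): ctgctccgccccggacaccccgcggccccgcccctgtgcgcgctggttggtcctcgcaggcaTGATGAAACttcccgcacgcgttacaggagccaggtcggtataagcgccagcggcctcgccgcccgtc
GOT1 (chr10:99430724-99430853, minus strand): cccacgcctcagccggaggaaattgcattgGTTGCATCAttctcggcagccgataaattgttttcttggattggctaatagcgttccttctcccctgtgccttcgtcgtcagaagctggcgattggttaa

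The match in ASNS begins at position -68 counted from the annotated start. Promoter sequences from 250 bases before to 50 after the start were matched for 12 of the 15 tested genes. The letters occurred on either strand in 5 of these 12 (41.7%), in 2 of the 5 with a sequence that fell (40%), and in 3.67% of all 27305 promoters. The 5 were ASNS, SLC3A2, SLC7A1, SLC38A1 and GOT1. A match describes the letters only, and within this list its holders included ASNS at -1.93, GOT1 at -0.18 and SLC3A2, the member called higher, at 0.29.

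All 12 tested heat shock and cytosolic chaperone genes passed, 9 lower (75%, against 12.3% of all features) and 3 higher (25%, against 5.49%), with a median of -0.71. HSPD1, the mitochondrial chaperonin, gave -1.09 and -1.17 forward and -1.66 and -2.12 reversed (mean -1.51 ± 0.07, adjusted p = 2.14e-06). CCT4, a subunit of the cytosolic chaperonin that folds actin and tubulin, gave -1.11, -1.13, -1.21 and -1.23 (mean -1.17 ± 0.08, adjusted p = 2.42e-05). TRAP1, the mitochondrial HSP90, gave -1.06, -1.10, -1.01 and -1.13 (mean -1.07 ± 0.06, adjusted p = 1.02e-05). CCT4 and TRAP1 barely differ between arrays. HSPA4, a cochaperone of HSP70, fell by 0.92 on the log2 scale (SE 0.14), with a forward array of replicate 2 at -0.08.

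The 3 chaperone rises were named after their values were seen. BAG1, a nucleotide exchange factor of HSP70, gave 0.79 ± 0.07 and HSPA8, the constitutive HSP70, gave 0.63 ± 0.07. HSPA6, an inducible HSP70, was called at 0.44 ± 0.07 although its arrays gave 0.30, 1.42, 0.41 and -0.37. Of the 12, HSPD1, CCT4, TRAP1 and HSPA4 were lower than under each other drug, as were 4.98% of all features so compared. In the endoplasmic reticulum, 3 of 10 tested chaperone and unfolded protein response genes fell (30%, against 12.3% of all features) and none rose (against 5.49%), with a median of -0.11. HSP90B1, which folds secreted receptors, led them with -0.84 and -1.09 forward and -1.73 and -1.25 reversed (mean -1.23 ± 0.06, adjusted p = 2.58e-06), followed by ERP29 at -0.94 ± 0.06 and PDIA3 at -0.32 ± 0.08, the last not called without replicate 1 (-0.21, adjusted p = 0.261).

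Of 20 tested splicing factors and hnRNPs, 5 fell (25%, against 12.3% of all features), none rose (against 5.49%) and 15 did not pass, with a median of -0.07. HNRNPA1, which regulates exon choice, fell by 1.45 on the log2 scale (SE 0.08). HNRNPU gave -0.63, -0.78, -0.89 and -1.36 and SFPQ -1.21, -0.85, -0.88 and -0.77, with means of -0.92 and -0.93. HNRNPA2B1 was called at -0.95 ± 0.17 although a forward array stood at 0.73 and the other 3 at -0.96, -1.79 and -1.80. Of 13 tested histone and chromatin assembly genes, 5 fell (38.5%) and none rose, with a median of -0.05. H2AZ2, a histone variant, gave a mean of -1.12 ± 0.11, ANP32B, an acidic histone chaperone, -1.08 ± 0.06, and SSRP1, a subunit of the FACT complex, -0.77 ± 0.05. HMGB1 was called at -0.77, but its 2 probes gave -1.58 and 0.05.

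Of 14 tested glycolysis and hypoxia genes, 6 fell (42.9%, against 12.3% of all features) and none rose (against 5.49%), with a median of -0.15. PFKP, a phosphofructokinase, gave -1.12, -1.40, -0.84 and -0.93 (mean -1.07 ± 0.06, adjusted p = 9.59e-06) and GPI, the isomerase before it, gave a mean of -0.90 ± 0.07. HIF1A, the hypoxia-inducible subunit, gave -0.37 and -0.34 forward and -1.29 and -1.36 reversed (mean -0.84 ± 0.05), so its orientations do not overlap. Among 16 tested respiratory chain genes, 6 fell (37.5%) and 1 rose (6.25%), with a median of -0.08, led by ATP5F1C at -0.78 ± 0.09 and COX7A2L at -0.73 ± 0.14. Against the rise of HMOX1, PRDX3, the mitochondrial peroxiredoxin, gave -0.88, -0.72, -1.38 and -1.87 (mean -1.21 ± 0.06, adjusted p = 3.84e-06), and TXNRD1, thioredoxin reductase, gave a mean of -0.78 ± 0.07. Over the 14 tested oxidative stress, haem and iron genes, 3 rose (21.4%) and 5 fell (35.7%), with a median of -0.05. ALDH3A1, an aldehyde dehydrogenase, was among the rises at 0.81 ± 0.11.

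Of 23 tested actin cytoskeleton genes, 10 fell (43.5%, against 12.3% of all features) and 1 rose (4.35%, against 5.49%), with a median of -0.28. CCN2, a matricellular growth factor that responds to tension, gave -1.23 and -1.17 forward and -1.43 and -1.53 reversed (mean -1.34 ± 0.05, adjusted p = 1.84e-06), and was still lower under cytochalasin D at -1.95. MYL12A, a myosin light chain, gave a mean of -0.90 ± 0.05, and ACTB, cytoplasmic actin, fell by 0.39 on the log2 scale (SE 0.06). Of 16 tested matrix and adhesion genes, 5 fell (31.2%) and none rose, with a median of -0.09. VIM, vimentin, gave -1.31, -0.89, -1.75 and -1.50 (mean -1.36 ± 0.09, adjusted p = 1.3e-05). COL5A2, a fibrillar collagen chain, gave -1.16, -1.07, -1.93 and -1.38 (mean -1.39 ± 0.08, adjusted p = 1.06e-05), and FN1, fibronectin, gave a mean of -0.91 ± 0.06. DYNC1H1, the heavy chain of the dynein motor, gave -1.31, -1.44, -1.10 and -1.45 (mean -1.33 ± 0.06); of the 11 tested tubulin and motor genes 2 fell (18.2%), the other being TUBB2A (-0.49 ± 0.11), not without replicate 1 (-0.46, adjusted p = 0.138) or replicate 2 (-0.51, adjusted p = 0.102).

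Of 12 tested keratin and epithelial genes, 3 rose (25%, against 5.49% of all features) and none fell (against 12.3%), with a median of -0.002: GPRC5A, PIGR and S100A4, the last at 0.29 ± 0.05, which did not pass without replicate 2 (0.25, adjusted p = 0.0873). Of 10 tested NF-kB targets and cytokines, 3 were called higher (30%), CXCL8, IL6 and SOD2, and none lower, but these rested on the forward arrays. CXCL8 gave 1.01 and 0.80 forward and -0.20 and 0.17 reversed, SOD2 gave 1.43 and 0.79 against -0.32 and 0.24, and IL6 gave 0.75 and 0.81 against 0.13 and 0.17. With the reversed arrays alone none of the 3 passed (-0.01 for CXCL8, -0.04 for SOD2 and 0.15 for IL6), and IL6 was not called without replicate 2 (0.44, adjusted p = 0.0536). IFIT3 and STAT3, of the interferon response, were called higher at 0.47 ± 0.06 and 0.42 ± 0.07, 2 rises among 16 tested genes (12.5%), and 1 of the 16 fell (6.25%). This was ISG20 at -0.25 ± 0.07, but not without replicate 1 (-0.22, adjusted p = 0.26) or replicate 2 (-0.29, adjusted p = 0.136).

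Markers of other cell types gave 1 rise in 6 tested genes (16.7%, against 5.49% of all features). CD14, a monocyte receptor, gave 0.84 and 0.69 forward and 0.09 and 0.56 reversed (mean 0.55 ± 0.12), and did not pass without replicate 1 (0.63, adjusted p = 0.0654) or replicate 2 (0.47, adjusted p = 0.172). The endothelial receptor KDR (0.10, adjusted p = 0.493) and the T cell marker CD2 (-0.17, adjusted p = 0.462) did not pass, and the list median was -0.003. A part of these markers in any result was not tested.

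In the remaining lists the shares called are set against the same 5.49% that rose and 12.3% that fell over all features. Of 14 tested genes of 14-3-3 proteins and MAP kinase signalling 5 fell (35.7%) and 1 rose (7.14%). Of 13 proteasome and ubiquitin genes 4 fell (30.8%) and 1 rose (7.69%), and 13 immediate early and stress regulators gave the same counts. Falls near the overall share were seen among 19 lysosome and autophagy genes (3 rose and 3 fell, 15.8% each), 11 sterol and fatty acid genes (2 rose and 2 fell, 18.2% each) and 11 apoptosis regulators (2 fell, 18.2%). Mitochondrial ribosome genes gave 2 rises (22.2%) and 3 falls (33.3%) in 9, and of 8 RNA decay genes only TOB1 rose (12.5%) and none fell. In the lists with no rise, an unadjusted limma p under 0.05 gave 1 higher gene among splicing factors (6 lower) and 1 among endoplasmic reticulum chaperones (4 lower), and 0 higher in the others. In the lists with no fall it gave 0 lower genes.

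**Figure D4:**
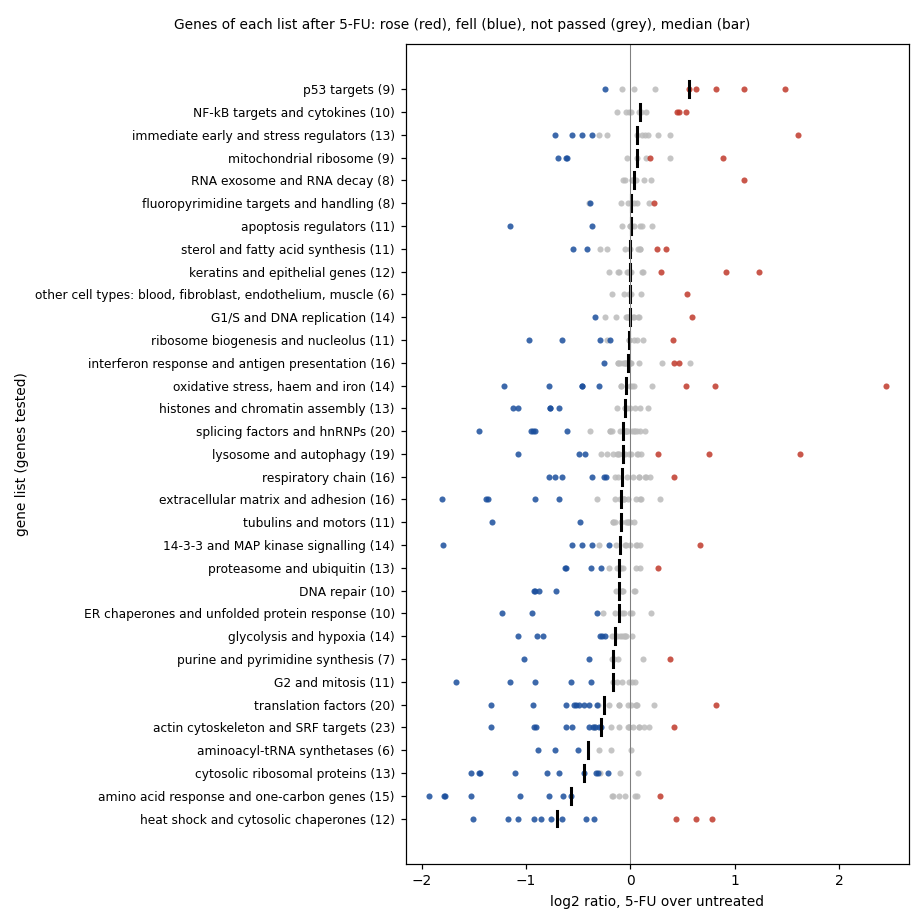
Log2 ratio, 5-FU over untreated, of every tested gene (x axis) in 33 gene lists (y axis, number tested in brackets), with red for genes that rose, blue for genes that fell, grey for those that did not pass and a bar at each list's median. The medians run from -0.71 for chaperones to 0.56 for p53 targets, and HMOX1 at 2.45 is the point farthest to the right.

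To ask what no other drug showed, the 2 reversed 5-FU arrays were set against the 2 arrays of each other drug. All carried treated RNA in channel 1. A dye effect of a probe therefore cancels only where it is alike on these arrays, which was not tested. Against cytarabine, 5-FU was higher for 10.7% and lower for 15.9% of 4931 features (limma, adjusted p under 0.05). Against cisplatin it was higher for 7.23% and lower for 12.4% of 5145. Against paclitaxel it was higher for 6.79% and lower for 9.42% of 5053, and against cytochalasin D higher for 6.59% and lower for 9% of 5102. The 4 comparisons share the same 5-FU arrays.

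A feature was called selective where it passed against untreated cells and differed from each of the 4 drugs in the same direction. Of 3536 features with all tests, 38 were selective rises (1.07%) and 176 selective falls (4.98%), among them 25 and 129 named genes. Of the falls with all tests 39.8% were selective, and of the rises 19.1%. The forward arrays, which did not enter the comparison between drugs but entered the test against untreated cells, had a mean in the same direction for 35 of the 38 rises and 171 of the 176 falls. Leaving out cytochalasin D replicate 1 or 2, or cisplatin replicate 2, left 25, 23 and 24 selective rises.

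All 4 other drugs had a mean under 0.3 in size for 21 of the 38 rises and 85 of the 176 falls. HMOX1 differed by at least 1.71 from every drug in its smallest difference (largest adjusted p = 0.000125), SARM1 by -1.73 (largest adjusted p = 7.07e-05) and EFEMP1 by -1.75 (largest adjusted p = 0.000105). CKAP5, a microtubule polymerase of the spindle, stood between -0.12 and -0.05 under the other drugs and at -1.15, -0.35, -1.81 and -1.38 after 5-FU. ATXN2, an RNA-binding protein of stress granules, gave -0.69, -0.64, -1.44 and -1.43. VIM stood between -0.27 and 0.13 elsewhere and RPL3 between -0.18 and 0.15.

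Some selective rises rested as much on low values under the other drugs as on 5-FU. The arrays of the other drugs had no dye-reversed partners, so their distance from 0 may include a dye effect, which was not tested. In 13 of the 38 another drug was at -0.3 or lower, and in 3 every other drug was. UGT1A10, a glucuronosyltransferase whose locus shares exons among its members so that the exact member is uncertain, gave 0.07, 0.33, 0.50 and 0.69 after 5-FU and -1.88 to -1.02 on the other 8 arrays. MRNIP, a cofactor of the MRE11 nuclease complex, gave 0.92, 0.37, 0.64 and 0.84 after 5-FU and -1.89 to -0.41 elsewhere. RAB18, a small GTPase of lipid droplets, gave 0.07, 0.28, 0.24 and 0.37, and its means under the other drugs ran from -0.86 to -0.55. The 3 genes lie above 0 on every 5-FU array, but UGT1A10 and RAB18 were not called against untreated cells without replicate 2 (0.28, adjusted p = 0.127, and 0.16, adjusted p = 0.292).

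Other selective rises were small against untreated cells and larger on the reversed arrays. SCARF1, a scavenger receptor, gave 0.39 and -0.20 forward and 1.18 and 0.70 reversed, and was not called without replicate 1 (0.25, adjusted p = 0.118). GPC1, a surface heparan sulfate proteoglycan, gave -0.08 and 0.28 against 0.64 and 0.65, and LAMA2, a laminin chain, gave 0.33 and 0.07 against 0.95 and 0.57. GPC1 was not called without replicate 2 (0.28, adjusted p = 0.117), and LAMA2 without replicate 1 (0.32, adjusted p = 0.0622). TOB1 and PIGR are weaker as selective genes than as rises: the largest of their adjusted p-values against the other drugs were 0.0184 and 0.0464. Leaving out any of the 8 arrays of the other drugs ended the selective call of PIGR (adjusted p from 0.0645 to 0.159), as did 5 of those 8 omissions for TOB1, namely either cisplatin array, either cytochalasin D array or paclitaxel replicate 1 (0.0556 to 0.0956). The selective call also ended for MRPL49 without 5-FU replicate 2 (0.57, adjusted p = 0.0659) or cisplatin replicate 1 (0.55, adjusted p = 0.0937), for SCARF1 without cytochalasin D replicate 2 (0.79, adjusted p = 0.0517) and for LAMA2 without paclitaxel replicate 2 (0.55, adjusted p = 0.078). With a channel term over all 12 arrays GM2A (adjusted p = 0.0563) and TOB1 (adjusted p = 0.0574) missed the threshold.

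Several selective falls were likewise larger in the reversed orientation. DECR1, a mitochondrial reductase of fatty acid oxidation, gave -0.00 and -0.39 forward and -1.46 and -1.02 reversed. PAIP1, which bridges poly(A)-binding protein and initiation factors, gave 0.08 and -0.80 against -1.92 and -1.13. ASPH, an aspartyl hydroxylase, gave -0.25 and -0.73 against -1.21 and -2.34, and as a selective gene its call was lost when cisplatin replicate 1 (-1.18, adjusted p = 0.119) or paclitaxel replicate 1 (-1.44, adjusted p = 0.0795) was left out. In these 3 genes and in HNRNPA2B1 each reversed array lies below both forward arrays, so the comparison between drugs, which used the reversed arrays, gives a larger fall than the mean of both orientations.

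**Figure D5:**
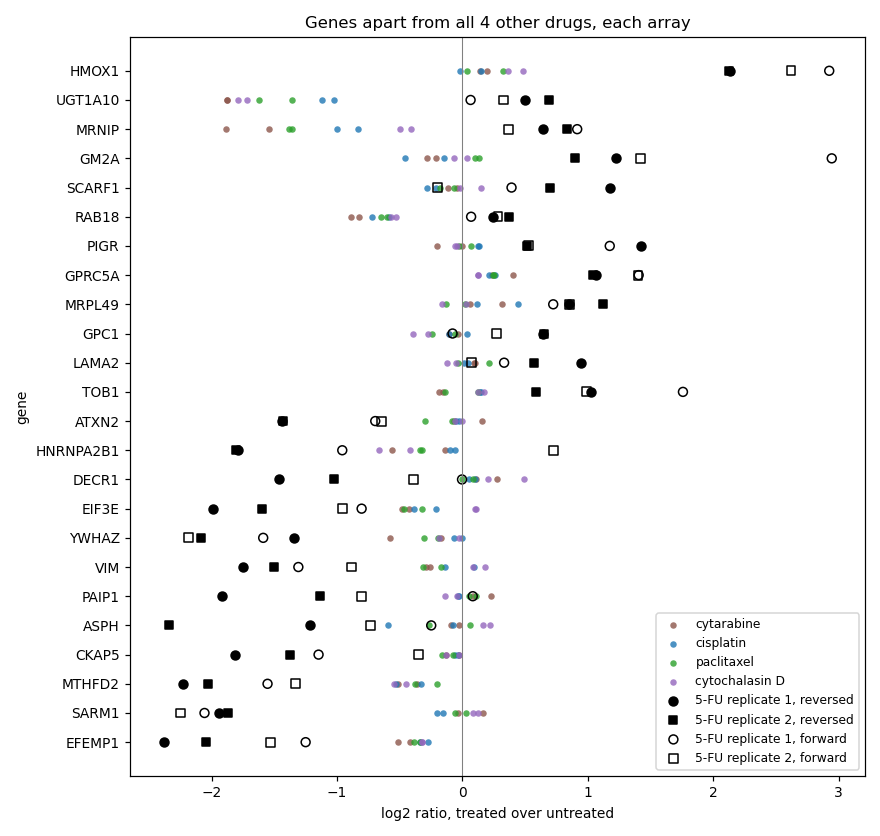
Log2 ratios, treated over untreated (x axis), on each array for the 12 selective rises and 12 selective falls with the largest smallest difference from the other drugs (y axis); black points are reversed and open points forward 5-FU arrays, circles replicate 1 and squares replicate 2, and colours mark the other drugs. For SARM1 and HMOX1 the 4 5-FU arrays lie far from all others, while UGT1A10, MRNIP and RAB18 are negative under the other drugs.

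Some genes had large values but could not be tested. HMGB2, a chromatin protein of proliferating cells, gave -2.63 and -1.54 forward and -2.64 on the single reversed array with a value. ULK1, the kinase that starts autophagy, gave -1.32, -1.66 and -2.59, and ZRSR2, a splicing factor of minor introns, gave -1.12, -1.88 and -2.20 (forward, forward, reversed). CHD1, a chromatin remodeller, gave -2.15 on a forward and -1.46 and -1.68 on the reversed arrays. H1-10, a linker histone, gave -1.74, -2.67 and -0.35. All 5 were below 0 on the 3 arrays that measured them, and the array without a value was reversed in 4 of them and forward in CHD1.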

How the data were processed

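RNA of treated and untreated H460 cells was hybridised to 12 two-channel arrays. The deposited values are log ratios per probe, taken here as log2 because neither base nor numerator is stated. They were made by the authors with normalization not given in the sources used here. Probes were named through the platform annotation and RefSeq: 5930 had 1 gene, 79 several and 2161 none. Probes of a gene were averaged; of 87 genes with several measured probes, 20 were called and 5 of these had probes of opposite sign. Related genes can cross-hybridise.

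Ratios were turned to treated over untreated, centred on the array median and fitted with limma 3.58.1 in R 4.3.3 (1 mean per drug, eBayes, Benjamini-Hochberg, threshold 0.05, at least 2 residual degrees of freedom). Fits were tested on simulated data. Array number limits the precision: the SD between the 5-FU replicates was 0.137.

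The members and gene lists were chosen with earlier results of these data known. The genes described are the 10 largest rises and falls among named genes with the same sign on all 4 arrays. Added to them were the 12 selective rises and falls with the largest smallest difference. Up to 4 members of each list that passed and 2 that did not, a set of drug-target genes, and 5 untested genes completed the set. Counts over 33 lists describe them and are no tests. Alternatives covered the samples, orientation, centring, missing values, probes, moderation, threshold, replicate block and leaving out each replicate.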

Additional observations from a re-analysis of the deposited data

Results flagged for a closer look

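In 4 of 125 called genes named in the text or lists, a 5-FU array stood apart from the other 3 by a gap above Dixon's critical value for 4 samples, which chance exceeds in about 5% of groups. GPI, a glycolytic isomerase, was at -0.72 on the replicate 2 forward array, against -0.96 to -0.94 on the others (gap 0.92 of the range). TSC22D3, a glucocorticoid-induced regulator, was at -0.72 on the replicate 2 forward array, against -0.40 to -0.35. HNRNPA1, a splicing regulator, was at -1.13 on the replicate 2 reversed array, against -1.60 to -1.53. SSRP1, a histone chaperone, was at -0.69 on the replicate 1 reversed array, against -0.81 to -0.79. All 16 values of these 4 genes are below 0.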

How the results depend on the processing

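The 662 calls against untreated (204 higher, 458 lower) became 1015 with forward arrays alone (448 higher) and 1155 with reversed arrays alone (426 higher, 729 lower). With 1 orientation kept they became 1108 (362 higher, 746 lower), where more features were tested. The 5-FU replicates alone gave 436 (107 higher), and a size of at least 1 gave 76 (10 higher, 66 lower). With the replicate block 652 were called (195 higher, 457 lower), and selective rises and falls were 37 and 172; numbers did not pair samples (correlations of deviations -0.061 to 0.09), and the block ended 1 named call, the selective rise of PIGR. Leaving out a replicate gave 574 to 699 calls (179 to 206 higher, 395 to 498 lower). Counts against other drugs fell with a channel term (819 cytarabine, 627 cisplatin, 503 paclitaxel, 487 cytochalasin D) and with the compared arrays only (556, 498, 403 and 424). Leaving out a replicate gave 781 to 1340 for cytarabine, 580 to 1075 for cisplatin, 440 to 978 for paclitaxel and 403 to 936 for cytochalasin D. The lowest of each came without a replicate of that drug: 781 without cytarabine replicate 2, 617 and 580 without cisplatin replicate 1 and 2, 440 and 471 for paclitaxel, and 410 and 403 for cytochalasin D. Selective rises ran from 23 to 54 and falls from 130 to 241; with a smallest difference of at least 1 they were 5 and 34. ELOVL6 reversed on forward arrays alone (-0.068), and CXCL8 (-0.014) and SOD2 (-0.041) on reversed arrays alone. The cause was not tested. Of 125 named calls, 101 were kept with the 5-FU replicates alone and 118 when the 12 arrays were fitted singly, and none changed sign without centring or with arrays scaled to equal spread. Missing values limit what could be tested.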
